A study of Mus musculus with 3 samples.

Results

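The neutrophil-rich spots were spots of the Day 3 wound slide that held a set minimum of RNA from genes that neutrophils make, whatever its share. They were chosen by 5 genes: a spot with at least 500 UMIs (unique molecular identifiers, each standing for 1 captured RNA molecule) belonged to them when it held 10 or more UMIs summed over *S100a8*, *S100a9*, *Il1b*, *Cxcl2* and *Retnlg*. This rule gave 241 of the 1194 spots with at least 500 UMIs, or 20.2% (exact binomial 95% interval 17.9 to 22.6), on a slide of 4992 spots. The spots came from the series' Visium experiment, in which a frozen section lies on a slide of barcoded spots that capture polyadenylated RNA, so that each spot reports a small region of tissue that may hold several cells. The sections were wounded skin of C57BL/6J mice on Day 3, Day 7 or Day 14, with 1 section per day. The labels name no genotype and no agent for any of the 3 groups, and by the study's methods the wounds were full-thickness punches in the back. With 1 section there was no replicate, so no difference below was tested between animals. Intervals on UMIs are 95% intervals that cover counting error only. Those on shares of spots, also 95%, treat spots as independent, although neutrophil-rich spots adjoined each other.

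Neutrophils are the first blood leukocytes to enter a wound. They leave the vessels along gradients of CXC chemokines such as Cxcl1, Cxcl2 and Cxcl5, which they sense through the receptor Cxcr2, and they carry S100a8 and S100a9, the paired calcium-binding proteins that fill much of their cytoplasm. Once in tissue they release proteases and oxidants and make cytokines of their own, among them interleukin 1 beta (*Il1b*). *Retnlg* encodes a resistin-like protein of circulating and infiltrating neutrophils. None of the first 4 genes belongs to neutrophils alone: activated keratinocytes also make *S100a8* and *S100a9*, and macrophages make *Il1b* and *Cxcl2*. The values of those cells' genes are therefore given beside the results.

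The deposited position list marks 664 of the spots as lying in the selected tissue area. Of the neutrophil-rich spots, 155 were marked and 86 were unmarked. The spots left for comparison were 365 other marked and 588 other unmarked spots, all with at least 500 UMIs. Marked neutrophil-rich spots were deep, with 509 to 23372 UMIs per spot and a median of 4494. Unmarked ones were shallow, with a median of 758.5 (504 to 15116). The medians of the other marked and other unmarked spots were 1639 and 1174. Together the neutrophil-rich spots held 1017439 UMIs, of which 887299 came from the marked ones, so by UMIs a pooled profile was mainly that of the marked spots. This did not hold for every gene. The unmarked ones supplied 591 of the 870 UMIs of the chemokine gene *Ccl4* and 148 of the 249 of the receptor gene *Trem1*. For this reason the marked and the unmarked spots are also compared each within its own area.

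**Figure D1:**
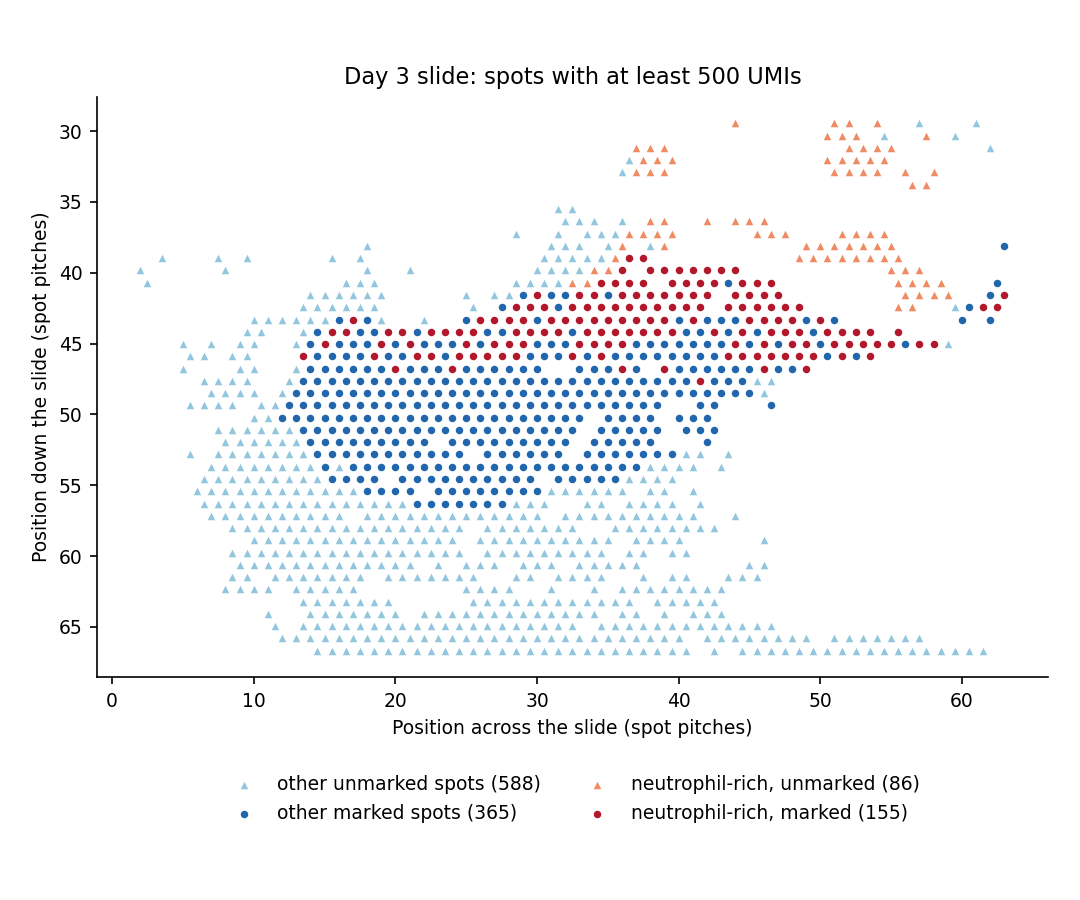
Position of every Day 3 spot with at least 500 UMIs, in spot pitches (the distance between neighbouring spot centres) across and down the slide. Dark red circles are the 155 marked and orange triangles the 86 unmarked neutrophil-rich spots, and blue symbols are the other spots; the neutrophil-rich spots lie along the upper side of the marked area and in patches above it.

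Among the genes that chose the spots, *S100a9* was at 1210.4 CPM (UMIs per 1000000 UMIs of the pooled spots) in marked and 10688 CPM in unmarked neutrophil-rich spots. The lowest, median and highest numbers of its UMIs per spot were 1, 6 and 31 in marked and 0, 10 and 90 in unmarked ones, against 0, 1 and 6 in other marked and 0, 0 and 4 in other unmarked spots. *S100a8* had medians of 4 and 8 UMIs in marked and unmarked neutrophil-rich spots, and its highest spot held 77. *Cxcl2* had medians of 5 and 8, and *Il1b* of 2 and 4. *Retnlg* was sparse: 74 of the 241 neutrophil-rich spots had a UMI of it, while 11 of 365 other marked and 10 of 588 other unmarked spots did. Every neutrophil-rich spot held at least 1 UMI of *Il1b*, *Cxcl2* or *Retnlg*, and 63 held UMIs of all 5 genes. On *S100a8* and *S100a9* alone, 145 of the 241 spots reached 10 UMIs.

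The proportions of the 5 genes to each other are given as a description, since their sum chose the spots. For each UMI of *S100a9* there were 0.756 UMIs of *Cxcl2* (0.689 to 0.829) in marked and 0.845 (0.781 to 0.914) in unmarked neutrophil-rich spots. The other marked and other unmarked spots had 0.822 (0.71 to 0.952) and 0.774 (0.643 to 0.931). For *Il1b* the ratios were 0.333 (0.295 to 0.376), 0.386 (0.349 to 0.427), 0.238 (0.189 to 0.298) and 0.381 (0.301 to 0.4804) in the same order. For *S100a8* they were 0.776 (0.708 to 0.8499) and 0.779 (0.719 to 0.844) in the marked and unmarked neutrophil-rich spots, 0.613 (0.522 to 0.719) in other marked and 0.567 (0.462 to 0.694) in other unmarked spots. Whether RNA had spread sideways between spots was not tested.

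Because the rule counts UMIs, it admitted a deep spot with a small share of these genes and asked a large share of a shallow one. The 5 genes made up 0.352% of UMIs (0.3402 to 0.365) in marked neutrophil-rich spots and 3.26% (3.17 to 3.36) in unmarked ones, against 0.128% in other marked and 0.0642% in other unmarked spots. Per spot, the share ran from 0.0822% to 3.87% with a median of 0.385% in the marked, and from 0.177% to 10.2% with a median of 4.16% in the unmarked ones. The shares of 135 of the 155 marked neutrophil-rich spots lay within the range of the other marked spots, which reached 1.28%. Of the unmarked ones, 9 of 86 lay within the range of other unmarked spots. By share, the marked spots were thus a mild and the unmarked spots a strong enrichment, as the rule itself sets. At the threshold, the 39 spots with 10 or 11 UMIs of the 5 genes had a median share of 0.558% and the 34 spots just outside, with 8 or 9, one of 0.334%. Their summed levels of the mature neutrophil genes described below were 1889 and 1435 CPM.

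**Figure D2:**
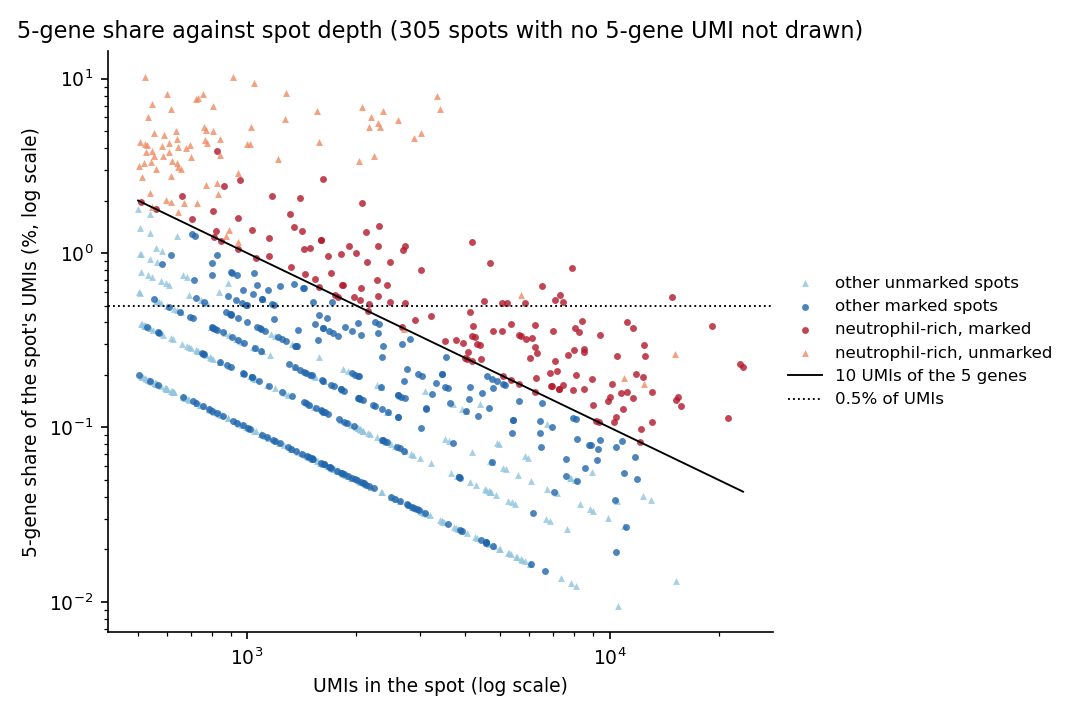
Share of each spot's UMIs that came from the 5 genes (%, log scale) against the spot's UMIs (log scale), for Day 3 spots with at least 1 such UMI. The solid line is the limit of 10 UMIs and the dotted line a share of 0.5%: 85 of the 155 marked (dark red) but 4 of the 86 unmarked (orange) neutrophil-rich spots lie under the dotted line.

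The neutrophil-rich spots adjoined each other. Of the neighbours of a neutrophil-rich spot that had at least 500 UMIs, 73.8% were neutrophil-rich too, against 6.34% of the neighbours of other spots. They formed 21 patches, and the 5 patches of 9 or more spots held 205 of them. The largest patch was a band of 133 spots, 120 of them marked, along the upper side of the marked area. The 5 genes made up 0.375% of its UMIs. The next was an unmarked patch of 32 spots, at 1.73 to 6.56 pitches from the marked area, and held 5.8%. Another 2 unmarked patches, of 18 and 9 spots, lay 8.54 and 6.08 pitches away at their nearest points and held 3.63% and 3.203%. A marked patch of 13 spots held 1.54%. The other 16 patches held 36 spots, 10 of them single spots. The patches differed in what surrounded the neutrophil genes. The unmarked patch of 32 spots had mature neutrophil genes at 21969 CPM, wound matrix genes at 18630.4 CPM and activated keratinocyte genes at 2552 CPM. In the unmarked patches of 18 and 9 spots the activated keratinocyte genes stood at 9661 and 19939 CPM, and the mature neutrophil genes at 12011 and 9681 CPM. Of these 3 patches, the one with the highest CPM of mature neutrophil genes had the lowest CPM of activated keratinocyte genes. In UMIs, the marked band held slightly more of the 5 genes than that patch did, 2932 against 2895. The patch of 32 spots weighed heavily in the unmarked values. It supplied 2895 of the 4244 UMIs of the 5 genes in unmarked neutrophil-rich spots, and without it the other 54 held 1.68%. Values without this patch, a choice made after the data were seen, are therefore given beside the main results.

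The label was checked with 25 genes of mature neutrophils that the rule did not use. They come from the same spots and the same UMIs as the rule, so they describe the choice and do not test it. In each neutrophil-rich spot at least 1 UMI of these genes was found, and 221 of the 241 held 3 or more of the genes. Their summed level was 2045 CPM (1952 to 2141) in marked and 11565 CPM (10979 to 12175) in unmarked neutrophil-rich spots, against 1107 CPM (1038 to 1179.7) in other marked and 965 CPM (909.5 to 1023) in other unmarked spots. These CPM, and those of all genes below, leave the UMIs of the 5 genes out. Within the marked area the ratio was 1.85-fold (1.71 to 1.999), and among unmarked spots it was 11.98-fold (11.1 to 12.96). Without the patch of 32 spots the unmarked ratio was 5.56 (4.96 to 6.22). More neutrophils in a spot and more RNA per neutrophil cannot be told apart in such sums. To set depth aside, each spot was thinned to 500 UMIs. The share of spots with at least 1 UMI of the list was then 72.3% (64.5 to 79.1) in marked and 96.5% (90.1 to 99.3) in unmarked neutrophil-rich spots. It was 41.1% (36 to 46.3) in other marked, 34.2% (30.4 to 38.2) in other unmarked and 27.97% (23.9 to 32.3) in the 454 other spots rich in skeletal muscle. Cells other than neutrophils make some genes of the list, so the last share is no measure of neutrophil RNA in muscle. Singly, *Csf3r* was found in 0.22% and *Slpi* in 7.49% of the thinned muscle-rich spots. Before thinning, the 5 shares for the list were 100%, 100%, 72.3%, 60.2% and 53.96%, at median depths of 4494, 758.5, 1639, 1174 and 1461 UMIs. The muscle-rich spots are themselves part of the other marked and other unmarked spots, so their values are not independent of those groups.

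Of the 25 genes, 14 had the 50 UMIs needed for a ratio in the marked area, where 7 were at least 2-fold higher, as were 8.68% of all genes tested. Among unmarked spots 13 had them, and 12 were at least 2-fold higher, against 21.5% of all genes tested. A gene that reached 50 UMIs mainly through the spots where it is high had to be called, so these counts and those of the lists that follow are descriptions. *Clec4d*, a lectin receptor that pairs with *Clec4e* on myeloid cells, was at 313 CPM in marked and 2168 CPM in unmarked neutrophil-rich spots, against 93.5 CPM in other marked and 55.2 CPM in other unmarked spots. The ratio was 3.35-fold (2.61 to 4.35) within the marked and 39.3-fold (29.8 to 52.5) within the unmarked spots. *Trem1*, a receptor that amplifies neutrophil and monocyte activation, was at 114, 1176, 40.4 and 22.4 CPM in the same order of groups, which is kept from here on, and *Hdc*, the enzyme that makes histamine, at 129, 985, 68.1 and 16.4 CPM. *Il1r2*, a decoy receptor that binds interleukin 1 without signalling, was at 222, 1017, 115 and 49.99 CPM. Each of these 4 genes was highest in the unmarked and next highest in the marked neutrophil-rich spots. Without the patch of 32 spots, *Clec4d*, *Trem1* and *Hdc* were at 773, 456 and 596 CPM, still above those groups. *Csf3r*, the receptor for the growth factor that drives neutrophil production, was at 78.04, 127, 26.6 and 8.62 CPM, and its UMIs were few (69, 16, 23 and 10). *Cxcr2*, the receptor for the neutrophil-attracting chemokines, had 21, 30, 14 and 5 UMIs, or 23.8, 238, 16.2 and 4.31 CPM. The protease inhibitor *Slpi*, which keratinocytes also make, was at 288, 1771, 106 and 353 CPM. *G0s2*, which fat cells also make, was 1.18-fold (0.90 to 1.54) in marked neutrophil-rich over other marked spots, with an interval that includes 1, and 12.3-fold (9.58 to 15.8) among unmarked spots. *Lrg1* and *Msrb1* had ratios of 0.663 (0.476 to 0.918) and 0.842 (0.6605 to 1.07) within the marked spots. Some defining genes were at or near 0. *Camp*, *Mpo*, *Elane* and *Ctsg*, which encode granule proteins made while neutrophils mature in the marrow, had no UMI in any of the 241 spots. Nor did *Padi4*, whose enzyme loosens chromatin when neutrophils release DNA. *Ly6g*, the classical surface marker, had 1 UMI in marked and 1 in unmarked ones, and *Ltf* none. With 1010068 UMIs behind these values, a count of 0 allows up to about 3 UMIs at a 1-sided 95% limit, whereas the printed intervals are 2-sided. The summed granule list was at 54.3, 254, 24.2 and 18.96 CPM, mostly through *Lcn2*, with 29, 24, 12 and 11 UMIs.

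Against the other marked spots, the neutrophil-rich spots had higher levels of neutrophil genes, chemokines, activated keratinocyte genes and inflammatory matrix genes, and lower levels of muscle and fat genes. Of 5955 genes with at least 50 UMIs over both groups, 616 (10.3%) were at least 2-fold higher and 334 (5.61%) at least 2-fold lower in pooled CPM. Other scalings moved every log2 ratio by -0.22 (TMM) or -0.24 (DESeq2 size factors), which gave 385 higher and 481 lower, or 361 and 499. Genes were ranked by the bound of the ratio's interval nearer to no change. *Cxcl5*, a chemokine that draws neutrophils, led with 9.38-fold (6.52 to 13.9). Near it ranked *Cstdc5* (6.39-fold, 5.21 to 7.91) and *Stfa1* (8.32-fold, 5.04 to 14.6), which encode cystatin-type inhibitors of cysteine proteases, and *Arg1*, the arginine-degrading enzyme of wound macrophages (7.75-fold, 5.196 to 12). *Endou*, an endoribonuclease, was 16-fold (5.202 to 79.9) on 56 and 3 UMIs. *Clec4d*, *Trem1*, the membrane protease *Adam8*, the chemokine *Ccl4*, the keratin *Krt6a* and the gap junction gene *Gjb2* were also among the 12 leading genes, at 4.81 to 7.16-fold. The 8 lowest were genes of muscle contraction, calcium release and metabolism: *Jph1*, *Tnnt1*, *Hrc*, *Trdn*, *Rpl3l*, *Myl2*, *Cox8b* and *Pgam2*, at ratios from 0.105 to 0.201. Of the mature neutrophil list, 14 of the 17 genes tested were at least 2-fold higher and none at least 2-fold lower, with a median log2 ratio of 1.79 against 0.25 over all genes tested. These pooled values include the unmarked neutrophil-rich spots, and ratios within the marked area differ from them.

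Against the other unmarked spots the difference reached much of the transcriptome. Of 6051 genes tested, 2253 (37.2%) were at least 2-fold higher and 636 (10.5%) at least 2-fold lower, and the median gene stood at a log2 ratio of 0.68. Scaling by TMM or by DESeq2 size factors moved every log2 ratio by -0.63 or -0.71, took the median gene to near 0 and gave 1011 higher and 1141 lower, or 914 and 1217. The ratios below are read against that shift. *Saa3*, an acute phase gene of wounded tissue, led with 18.7-fold (14.9 to 23.8). The metalloprotease inhibitor *Timp1* was at 15.7-fold (12.1 to 20.8) and *Cxcl5* at 18.3-fold (11.9 to 29.5). *Cyp2g1* (74 against 1 UMI) and *Defb8* (92 against 4) were also among the 12 leading genes, on few UMIs in the other spots. *Crabp1*, *Hmox1*, *Fcgr4*, *Hdc*, *Adam8*, *Ccl2* and *Cstdc4* stood between 13.2 and 18.7-fold. The lowest genes were *Msln* (2 against 74 UMIs), the muscle genes *Cox8b*, *Cox7a1*, *Myh1*, *Ampd1* and *Trim54* and the mitochondrial *mt-Atp8* and *mt-Nd4l*, the last 7 at ratios of 0.0824 to 0.117. *Ampd1* and *Trim54* turned to log2 ratios of 0.59 and 0.37 when only other spots within 3 pitches of a neutrophil-rich spot were compared. The mature neutrophil list had 14 of the 17 tested genes at least 2-fold higher, with a median log2 ratio of 2.98. Skeletal muscle genes made up 18622, 28389, 62208 and 104793 CPM of the marked and unmarked neutrophil-rich, other marked and other unmarked spots, so the muscle RNA of the other spots was part of both comparisons. Without spots in which the muscle list held 10% or more of UMIs, 318 and 1302 genes were at least 2-fold higher.

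Within the marked area, 489 of 5632 genes (8.68%) were at least 2-fold higher in the neutrophil-rich than in the other marked spots and 328 (5.82%) at least 2-fold lower. Among unmarked spots, 718 of 3335 (21.5%) were at least 2-fold higher and 747 (22.4%) at least 2-fold lower. Without the patch of 32 spots the unmarked counts were 701 higher and 726 lower of 3178. Among the genes that ranked first in the marked area were *Cxcl5* (10.2-fold, 7.08 to 15.1), *Arg1* (6.42-fold, 4.27 to 10.02) and *Hmox1*, the haem-degrading enzyme (5.18-fold, 4.07 to 6.65). Among unmarked spots the first 5 were *Cstdc4* (72.5-fold, 42.2 to 134), *Hdc* (60.1-fold, 36.9 to 103), *Ccl4* (43.9-fold, 36.1 to 53.8), *Trem1* (52.5-fold, 34.4 to 82.96) and *Srgn* (36.5-fold, 32.04 to 41.8), which encodes the core protein of the proteoglycan packed into leukocyte granules. Genes called in both areas shared direction. Of 3214 genes tested in both, 172 were at least 2-fold higher in the marked area and 716 among unmarked spots. In both were 143, or 83.1% of the first and 19.97% of the second number. At least 2-fold lower were 305 in the marked area, 656 among unmarked spots and 268 in both. None was called higher in one and lower in the other, and most genes called among unmarked spots were not called in the marked area. The 2 comparisons share no spots, but both come from the same section.

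**Figure D3:**
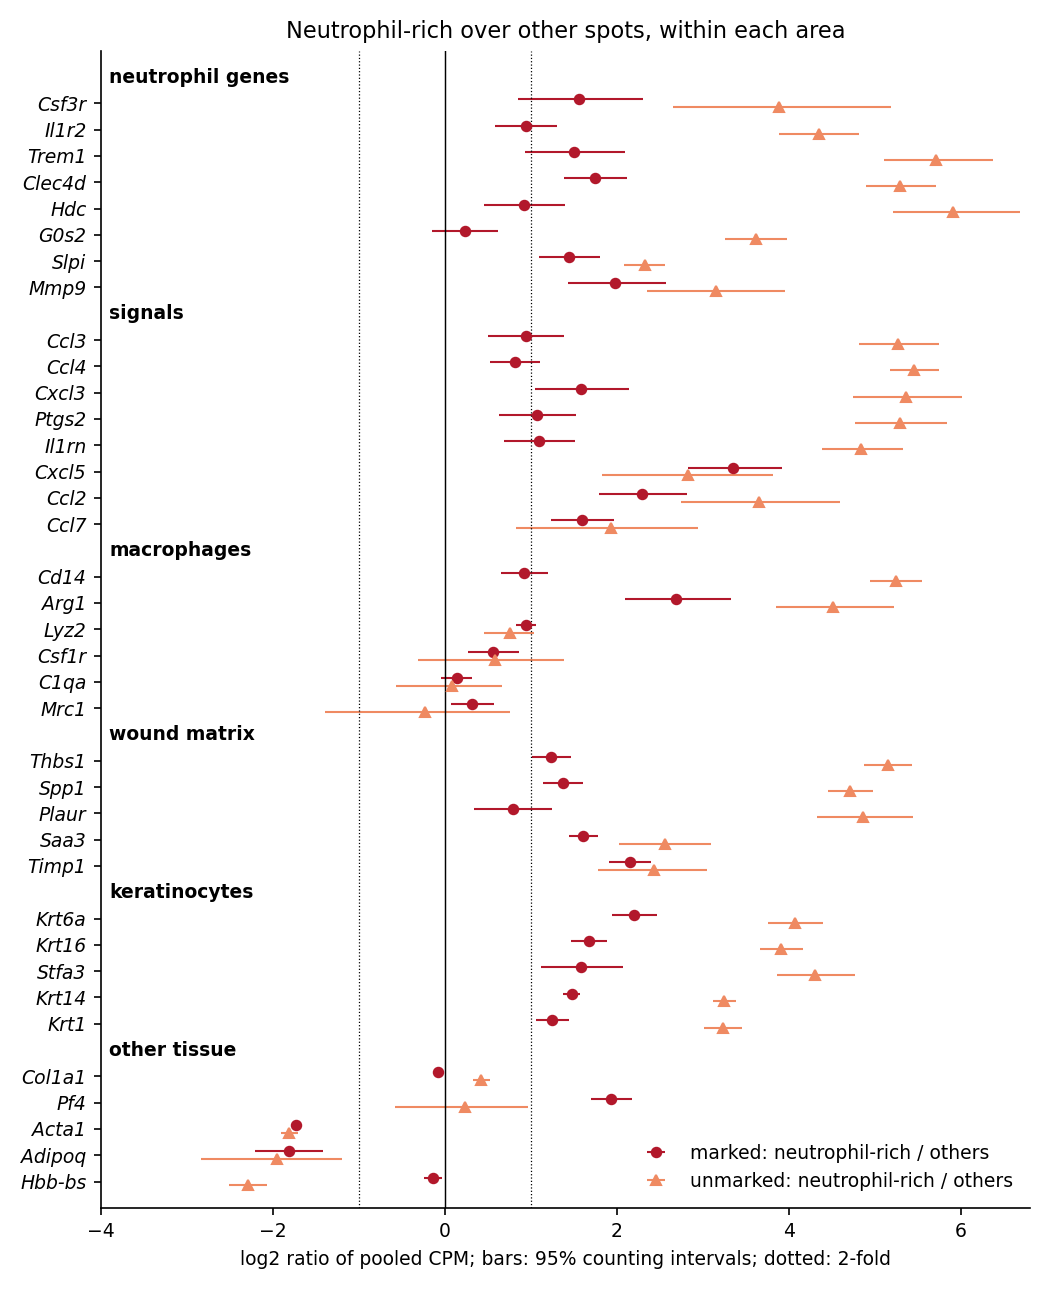
Log2 ratio of pooled CPM, neutrophil-rich over other spots, for named genes within the marked (dark red circles) and the unmarked spots (orange triangles); bars are 95% counting intervals and dotted lines mark 2-fold. Neutrophil genes, *Ccl3*, *Ccl4*, *Cd14* and *Thbs1* lie far to the right in the unmarked spots, whereas the intervals of *Cxcl5* and *Timp1* overlap between the areas and *Pf4* is at least 2-fold higher in the marked area alone.

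Signals between leukocytes were high in the neutrophil-rich spots, above all in the unmarked ones. The list of 16 chemokines, cytokines and related signals, from which the rule's *Il1b* and *Cxcl2* were left out, was at 1976, 11073, 685 and 340.4 CPM in marked and unmarked neutrophil-rich, other marked and other unmarked spots. That is a ratio of 2.89-fold (2.63 to 3.17) within the marked area and of 32.5-fold (29.1 to 36.5) among unmarked spots, or 14.7 (12.7 to 16.9) without the patch of 32 spots. Of its genes, 6 of the 8 tested in the marked area and 5 of the 5 tested among unmarked spots were at least 2-fold higher, against 8.68% and 21.5% of all genes. In spots low in epidermal RNA (both epidermal lists under 1% of UMIs) the 2 ratios were 4.02 (3.58 to 4.51) and 93.8 (81.3 to 109), and in spots with the muscle list under 10% of UMIs 2.22 (2.02 to 2.45) and 20.2 (17.7 to 23.03). The CC chemokines *Ccl3* and *Ccl4*, which attract monocytes and other leukocytes, went with the unmarked patches. *Ccl4* was at 316 CPM in marked and 4694 CPM in unmarked neutrophil-rich spots, against 179 CPM in other marked and 107 CPM in other unmarked spots, and *Ccl3* at 148, 1628, 77.4 and 42.2 CPM. From marked to unmarked neutrophil-rich spots they were 14.9-fold (12.9 to 17.2) and 10.99-fold (8.78 to 13.8) higher, or 6.31 (5.15 to 7.698) and 4.88 (3.51 to 6.71) times higher without the patch of 32 spots. *Ptgs2*, the inducible enzyme of prostaglandin synthesis, was at 150.4, 1279, 71.6 and 32.7 CPM, and *Il1rn*, the antagonist that blocks the interleukin 1 receptor, at 178, 1287, 83.1 and 44.8 CPM. *Osm*, a cytokine of the interleukin 6 family, had 27, 37, 14 and 6 UMIs, and *Tnf* 37, 25, 7 and 6. A second set of signals was lower, or for *Ccl2* about level, in unmarked compared with marked neutrophil-rich spots. *Cxcl5* was at 377 CPM in marked and 135 CPM in unmarked neutrophil-rich spots, against 36.95 CPM in other marked and 18.96 CPM in other unmarked spots, and *Ccl7*, which attracts monocytes, at 289.5, 95.3, 95.8 and 24.99 CPM. *Ccl2*, the main monocyte attractant, was at 226, 207, 46.2 and 16.4 CPM. Unmarked over marked neutrophil-rich spots, *Cxcl5* and *Ccl7* had ratios of 0.359 (0.206 to 0.583) and 0.329 (0.168 to 0.585), and *Ccl2* one of 0.913 (0.582 to 1.38). The marked neutrophil-rich spots thus exceeded the unmarked ones in *Cxcl5* and *Ccl7* while being below them in *Ccl3*, *Ccl4* and *Cxcl3*. Without the patch of 32 spots *Cxcl5* stayed lower in the unmarked ones, at 0.404 (0.207 to 0.715), on 12 UMIs. *Cxcl3* was at 135, 953, 45.03 and 23.3 CPM. *Cxcl1* had 29, 8, 7 and 6 UMIs. *Il6*, *Il1a*, *Csf3* and *Cxcl10* had fewer than 20 UMIs over the neutrophil-rich spots and were too sparse to compare.

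Many genes of this list are targets of NF-kB, a transcription factor that cytokine and microbial receptors activate and that binds sites close to the letters GGGNNTTTC. The 250 bases before each transcription start (RefSeq, GRCm38.p6) were searched for these letters on both strands. They occur in 1175 of 27025 genes with a window (4.35%). Of the chemokine and cytokine list 10 of 16 genes had a window, and 4 of these held the letters (*Cxcl1*, *Cxcl3*, *Il1rn*, *Il6*). Of the mature neutrophil list 2 of 21 did, and of the list of NF-kB targets 3 of 11. With 1 more C after these letters the shares were 447 of all genes (1.65%), the same 4 chemokine and cytokine genes, the same 3 NF-kB targets and 1 of the mature neutrophil genes. The 250 bases before the start of the 3 neighbouring CXC chemokines and of *Nfkbia*, which encodes the inhibitor that NF-kB itself induces, are shown because *Cxcl2* chose the spots and *Cxcl3* and *Nfkbia* were higher in them. Capitals mark the letters searched for, on either strand. They lie at chr5:90890995-90891244 (plus strand) for *Cxcl1*, chr5:90903649-90903898 (plus) for *Cxcl2*, chr5:90785851-90786100 (plus) for *Cxcl3* and chr12:55492648-55492897 (minus) for *Nfkbia*, and each is written 5′ to 3′ along its gene.
Cxcl1: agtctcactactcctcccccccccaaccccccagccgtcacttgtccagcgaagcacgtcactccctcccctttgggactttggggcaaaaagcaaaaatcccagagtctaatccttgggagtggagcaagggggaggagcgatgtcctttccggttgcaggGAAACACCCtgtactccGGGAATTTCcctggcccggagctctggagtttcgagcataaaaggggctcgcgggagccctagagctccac
Cxcl2: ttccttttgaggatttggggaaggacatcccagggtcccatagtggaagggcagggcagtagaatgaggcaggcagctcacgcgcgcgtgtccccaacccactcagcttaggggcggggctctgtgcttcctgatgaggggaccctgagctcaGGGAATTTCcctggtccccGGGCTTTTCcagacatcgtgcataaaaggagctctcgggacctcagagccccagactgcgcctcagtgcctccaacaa
Cxcl3: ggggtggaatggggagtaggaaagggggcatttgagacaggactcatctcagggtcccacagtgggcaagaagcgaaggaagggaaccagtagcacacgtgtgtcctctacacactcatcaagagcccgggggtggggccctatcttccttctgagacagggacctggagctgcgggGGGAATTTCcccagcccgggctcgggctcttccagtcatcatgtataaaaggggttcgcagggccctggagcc
Nfkbia: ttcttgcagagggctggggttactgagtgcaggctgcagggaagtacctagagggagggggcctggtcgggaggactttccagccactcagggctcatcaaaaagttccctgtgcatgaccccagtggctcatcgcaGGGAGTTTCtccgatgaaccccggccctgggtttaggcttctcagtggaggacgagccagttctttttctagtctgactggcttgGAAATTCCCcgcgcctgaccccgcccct

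*Cxcl1*, *Cxcl2* and *Nfkbia* held the letters at 2 places each, and *Cxcl3* at 1. A match is a description of the sequence and not of binding.

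The list of 15 other NF-kB targets stood at 1779, 4273, 1217 and 855 CPM in marked and unmarked neutrophil-rich, other marked and other unmarked spots. At least 2-fold higher were 1 of the 10 genes tested within the marked area, where 8.68% of all genes were, and 5 of the 7 among unmarked spots, where 21.5% were. The count in the marked area was thus near that of all genes. The stress gene *Ier3* was at 224, 1136, 124 and 52.6 CPM, *Nfkbia* at 224, 540.1, 155 and 87.9 CPM and *Zfp36*, whose protein destabilises cytokine mRNAs, at 114, 342, 69.3 and 25.9 CPM. *Sod2*, a mitochondrial antioxidant enzyme, had ratios of 0.785 (0.6199 to 0.992) and 0.925 (0.613 to 1.35) in the 2 areas. The interleukin 1 pathway list, made of receptors, inflammasome and adaptor genes, stood at 473, 731, 242 and 112 CPM. Its inflammasome sensor *Nlrp3* had 29, 30, 12 and 8 UMIs. The signalling receptor *Il1r1* was at 98.4, 31.8, 42.7 and 20.7 CPM and the accessory chain *Il1rap* at 67.9, 119, 40.4 and 14.7 CPM. The decoy *Il1r2* was thus highest with the neutrophil genes in the unmarked spots, while *Il1r1* was highest in the marked neutrophil-rich spots. Of the adhesion genes that leukocytes use to leave vessels, summed at 857, 2105, 405 and 189.6 CPM, *Itgam* and *Itgb2*, the 2 chains of an integrin of neutrophils and macrophages, were at 140.2, 365, 78.5 and 31.03 CPM and at 171, 373, 78.5 and 38.8 CPM. These adhesion genes followed the neutrophil order of groups. *Cd44*, a receptor for hyaluronan, was at 355, 1072, 120.1 and 67.2 CPM. *Sele* and *Selp*, the selectins of activated endothelium, had 2 and 4 UMIs over all neutrophil-rich spots. The oxidase that makes superoxide in phagocytes was at 625, 794, 363 and 203 CPM as a list. Its cytosolic part *Ncf1* was at 76.9, 167, 50.8 and 19.8 CPM, and the membrane part *Cybb*, shared with macrophages, at 92.7, 39.7, 62.4 and 30.2 CPM.

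Macrophage genes were also higher, but less so and in another pattern. The list of 20 stood at 6653, 7085, 4390.2 and 1823 CPM in marked and unmarked neutrophil-rich, other marked and other unmarked spots, a ratio of 1.52-fold (1.45 to 1.58) within the marked area and 3.89-fold (3.59 to 4.21) among unmarked spots. In the marked area 6 of the 19 genes tested were at least 2-fold higher, and among unmarked spots 5 of the 12, against 8.68% and 21.5% of all genes. In spots low in epidermal RNA (both epidermal lists under 1% of UMIs) the 2 ratios were 2.05 (1.95 to 2.16) and 7.101 (6.33 to 7.95), and in spots with the muscle list under 10% of UMIs 1.23 (1.18 to 1.28) and 2.82 (2.59 to 3.08). Between marked and unmarked neutrophil-rich spots the summed level was close (1.07-fold (0.992 to 1.14) unmarked over marked), although the mature neutrophil list differed 5.66-fold (5.27 to 6.06). Without the patch of 32 spots these ratios were 0.747 (0.673 to 0.828) and 2.62 (2.35 to 2.92). Its composition was not close. *Cd14*, the lipopolysaccharide co-receptor that neutrophils carry too, was at 373 CPM in marked and 3876 CPM in unmarked neutrophil-rich spots, against 197 CPM in other marked and 103 CPM in other unmarked spots. *Arg1* was at 200.2, 532, 31.2 and 23.3 CPM. The genes of resident and maturing macrophages were lower in the unmarked than in the marked neutrophil-rich spots. The ratio was 0.346 (0.224 to 0.513) for the complement gene *C1qa*, 0.208 (0.0942 to 0.40) for the mannose receptor *Mrc1* and 0.439 (0.242 to 0.739) for the growth factor receptor *Csf1r*. It was 0.467 (0.384 to 0.564) for the lysozyme *Lyz2*, which is not particular to macrophages, since granulocytes make it too. Of the list, 11 of the 18 genes tested were at least 2-fold lower there and 2 at least 2-fold higher, the pair being *Cd14* and *Arg1*. Of all 3733 genes tested between these groups, 15.8% were at least 2-fold lower and 7.02% at least 2-fold higher.

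Antigen presentation was lower in the unmarked than in the marked neutrophil-rich spots. The list with the class II genes stood at 4526, 1954, 2618 and 1152 CPM in the same order of groups, and *H2-Aa*, a class II chain, at 843, 334, 509 and 231 CPM. Lymphocyte genes were almost absent, with 51 UMIs of 10 genes over the neutrophil-rich spots, and mast cell genes had 73 UMIs in marked and 1 in unmarked ones. Interferon-stimulated genes stood at 1045, 898, 672 and 446 CPM, a ratio of 0.859 (0.7001 to 1.05) for unmarked over marked neutrophil-rich spots. *Pf4*, a chemokine of platelets and of some macrophages, was at 806 CPM in marked and 135 CPM in unmarked neutrophil-rich spots, against 211 CPM in other marked and 115 CPM in other unmarked spots. The ratio was 3.82-fold (3.24 to 4.51) within the marked and 1.18 (0.666 to 1.96) among unmarked spots. The platelet genes *Itga2b* and *Treml1* had no UMI in the neutrophil-rich spots, and *Gp9* had 1.

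**Figure D4:**
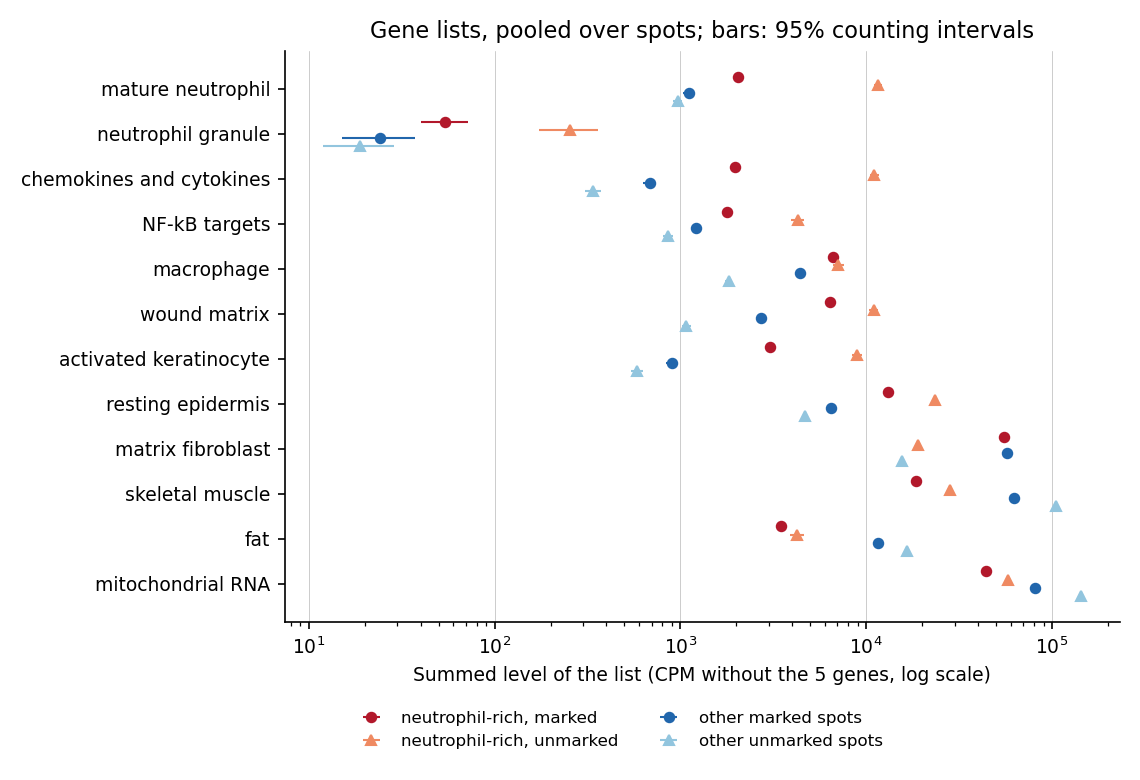
Summed level of 12 gene lists in CPM without the 5 genes (log scale), pooled over marked (dark red circles) and unmarked (orange triangles) neutrophil-rich spots and over other marked (dark blue circles) and other unmarked (light blue triangles) spots; bars are 95% counting intervals. The unmarked neutrophil-rich spots stand apart from the other 3 groups in neutrophil and chemokine genes, while the macrophage lists of both neutrophil-rich groups lie together.

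Keratinocyte genes were also higher in the neutrophil-rich spots. The list of wound-activated keratinocyte genes stood at 3036, 8936, 899.5 and 585 CPM in marked and unmarked neutrophil-rich, other marked and other unmarked spots, a ratio of 3.37-fold (3.11 to 3.66) within the marked area and 15.3-fold (13.9 to 16.8) among unmarked spots. All 7 of its genes tested were at least 2-fold higher in each area, against 8.68% and 21.5% of all genes. *Krt6a* and *Krt16* are keratins that epidermis makes at a wound edge. *Krt6a* was at 788, 1827, 172 and 109 CPM and *Krt16* at 942, 2764, 296 and 184 CPM. *Stfa3*, a stefin that neutrophils make as well, was at 173, 1041, 57.7 and 52.6 CPM. Genes of resting epidermis were higher too, at 13018, 23488, 6429 and 4685 CPM as a list. *Krt14* of the basal layer was at 3790.0, 6974, 1365 and 733 CPM, and *Krt1* of the layers above it at 838, 2661, 352 and 283 CPM. In 120 of the 241 neutrophil-rich spots the 2 lists held 1% or more of the UMIs. The comparison was therefore repeated over spots in which both epidermal lists together held under 1% of UMIs, a limit chosen after the values were seen. This left 97 marked and 24 unmarked neutrophil-rich spots. The mature neutrophil list then stood 2.28-fold (2.07 to 2.504) higher than in other spots of the marked area and 26.1-fold (23.7 to 28.7) higher among unmarked spots. In spots with the muscle list under 10% of UMIs the ratios of this list were 1.52 (1.396 to 1.65) and 10.2 (9.21 to 11.2). The ratios over all spots, 1.85 and 11.98, lay between those of the 2 limits. The ratios of the activated keratinocyte list were 1.82 (1.596 to 2.07) and 5.703 (4.14 to 7.72) under the epidermal limit, which that list itself sets, and 2.65 (2.44 to 2.88) and 8.57 (7.72 to 9.53) under the muscle limit. Spots were also sorted by the share of the 5 genes, which chose them, as a description. Among unmarked neutrophil-rich spots, from the third with the lowest share of the 5 genes to the third with the highest, the mature neutrophil list went from 3576 through 14836 to 23403 CPM and the activated keratinocyte list from 13335 through 7224 to 2354 CPM. In the marked area both were higher at a higher share, the first from 1323 through 2310.1 to 5261 CPM and the second from 2038 through 2990.5 to 8847 CPM. How much of *S100a8* and *S100a9* came from keratinocytes was not tested.

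The wound matrix list holds matrix genes and also the acute phase gene *Saa3*, the enzyme gene *Hmox1* and the receptor gene *Plaur*. Its 14 genes were high in the neutrophil-rich spots as a sum. They stood at 6417, 10953, 2701 and 1076 CPM in marked and unmarked neutrophil-rich, other marked and other unmarked spots. The ratio was 2.38-fold (2.26 to 2.49) within the marked area, with 7 of the 13 genes tested at least 2-fold higher, and 10.2-fold (9.43 to 11) among unmarked spots, with 8 of the 11, against 8.68% and 21.5% of all genes. Without the patch of 32 spots the latter ratio was 5.93 (5.34 to 6.58). In spots low in epidermal RNA (both epidermal lists under 1% of UMIs) the 2 ratios were 3.38 (3.19 to 3.58) and 23.3 (21.1 to 25.8), and in spots with the muscle list under 10% of UMIs 1.83 (1.74 to 1.92) and 7.04 (6.44 to 7.699). The list split in the same way as the chemokines. *Thbs1*, which encodes thrombospondin 1, was at 624 CPM in marked and 4130.4 CPM in unmarked neutrophil-rich spots, against 266 CPM in other marked and 116 CPM in other unmarked spots. *Spp1*, which encodes osteopontin, was at 646, 3789, 249 and 145 CPM and *Plaur*, the receptor of urokinase, at 133, 929, 77.4 and 31.9 CPM. These 3 were 5.87 to 6.96 times higher in unmarked than in marked neutrophil-rich spots, and without the patch of 32 spots 3.01 to 3.61 times. *Saa3* was at 1378 CPM in marked and 397 CPM in unmarked neutrophil-rich spots, against 451 CPM in other marked and 67.2 CPM in other unmarked spots. *Timp1* was at 890.1, 278, 201 and 51.7 CPM and *Hmox1* at 484, 167, 93.5 and 33.6 CPM. These genes were higher in the marked set, with ratios of unmarked over marked neutrophil-rich spots from 0.288 to 0.345, although within each area they were higher in the neutrophil-rich than in the other spots. The collagens and other genes of dermal fibroblasts differed less over all spots. The list stood at 55461, 19039.5, 57103 and 15513 CPM, a ratio of 0.971 (0.959 to 0.983) within the marked area and 1.23 (1.18 to 1.28) among unmarked spots. The median genes of the 2 comparisons stood at log2 ratios of 0.27 and 0.06, so that the first ratio lay below and the second above the median. These directions depended on the spots compared. In spots low in epidermal RNA (both epidermal lists under 1% of UMIs) the 2 ratios were 1.29 (1.27 to 1.31) and 1.43 (1.31 to 1.56), and in spots with the muscle list under 10% of UMIs 0.727 (0.718 to 0.736) and 0.7898 (0.756 to 0.825). With spots chosen by a share of 0.5% they were 0.592 (0.578 to 0.607) and 1.22 (1.16 to 1.27). *Col1a1* was at 22259, 7474, 23576 and 5567 CPM. Endothelial genes stood at 641, 405, 694 and 331 CPM.

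Skeletal muscle and fat genes were lower in the neutrophil-rich spots. All 12 muscle genes tested and 8 of the 9 fat genes tested were at least 2-fold lower in each area, where 5.82% and 22.4% of all genes were, with muscle list ratios of 0.299 (0.294 to 0.305) and 0.271 (0.262 to 0.2801). They were 0.599 (0.586 to 0.611) and 0.539 (0.5199 to 0.558) in spots with the muscle list under 10% of UMIs, a limit that this list itself sets, and 0.6403 (0.623 to 0.658) and 0.299 (0.288 to 0.309) with spots chosen by a share of 0.5%. *Acta1*, the actin of skeletal muscle, was at 4558, 6688, 15143 and 23435 CPM in marked and unmarked neutrophil-rich, other marked and other unmarked spots. The fat list stood at 3469.9, 4234, 11516 and 16536 CPM, and *Adipoq*, which encodes adiponectin, at 79.2, 111, 277 and 430.1 CPM. Mitochondrial RNA was at 44028, 57769.9, 80745 and 143860.1 CPM, so that the 4 groups fell in the same order as for muscle. Red cell genes stood at 4281, 3336, 4384 and 15878 CPM, and were highest in the other unmarked spots. The list of glycolysis and hypoxia genes stood at 3943, 6347, 4219 and 4812 CPM, and its members diverged. The glucose carriers *Slc2a1* and *Slc2a3* were higher, at 129, 349, 27.7 and 24.1 CPM and at 221, 1326, 112 and 47.4 CPM. The lactate dehydrogenase gene *Ldha*, abundant in muscle, was at 1352, 1573, 1926 and 2186 CPM, and *Pkm* at 1179.6, 1628, 1222 and 1500.4 CPM.

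Neutrophil genes were lower away from the neutrophil-rich spots, though not at each step. Among marked spots the mature neutrophil list was at 2045 CPM in the neutrophil-rich spots, 1372 CPM in their direct neighbours, 1450.4 CPM at over 1 to 2 pitches, 1136 CPM at over 2 to 4 and 656 CPM beyond. Among unmarked spots it dropped from 11565 CPM to 1884 CPM in the 28 direct neighbours and 919.8 CPM in the next ring of 20, then 1157 CPM at over 2 to 4 pitches and 929 CPM beyond. The first step holds the rule's own threshold, since a deep neighbour with more of the 5 genes would itself have been chosen. Spots under 500 UMIs, which the rule left out and which are taken here marked and unmarked together, did not show that step. At 1 pitch from a neutrophil-rich spot, 165 such spots had the list at 10963 CPM and the chemokine and cytokine list at 11464 CPM, near the levels of unmarked neutrophil-rich spots. At over 1 to 2, over 2 to 4 and beyond 4 pitches the first list stood at 9805, 6636 and 3156 CPM. Macrophage genes were lowest beyond 4 pitches. In the marked area they were at 6653 CPM in the neutrophil-rich spots, 5253 CPM next to them, 7301 CPM at over 2 to 4 pitches and 2113 CPM beyond. The wound matrix list was lower at each step among marked spots, through 6417, 4196, 2989, 2659 and 795 CPM. Among unmarked spots it was at 10953, 3637, 2156, 2713 and 909 CPM, higher at over 2 to 4 than at over 1 to 2 pitches. Among marked spots, skeletal muscle genes were higher at each step, from 18622 to 111967 CPM. The matrix fibroblast list, of collagens and other fibroblast genes, was at 55461 CPM in marked neutrophil-rich spots and 95018 CPM in their marked neighbours. It then stood at 79525 CPM at over 1 to 2 pitches, 42274 CPM at over 2 to 4 and 8718 CPM beyond. Among unmarked spots the values in the same order were 19039.5, 67982, 66856, 37467 and 11426 CPM. The intervals of the first 2 rings overlapped there.

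**Figure D5:**
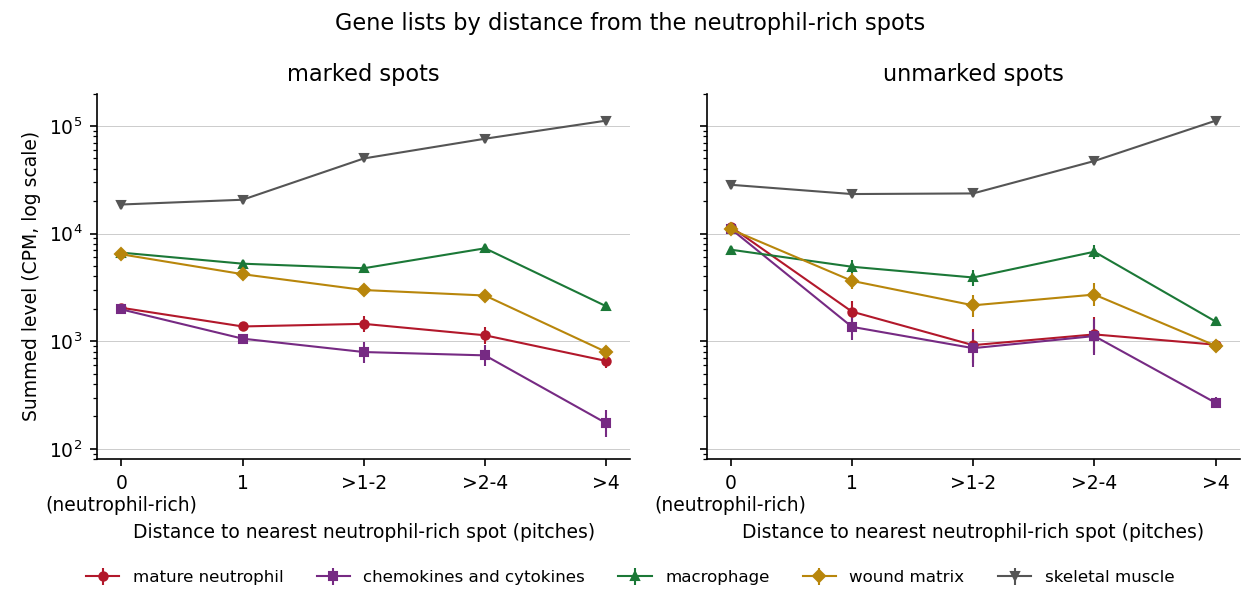
Summed CPM of 5 gene lists (log scale) in neutrophil-rich spots (distance 0) and in other spots by distance to the nearest neutrophil-rich spot in pitches, for marked (left) and unmarked spots (right); bars are 95% counting intervals. Mature neutrophil and chemokine genes drop between 0 and 1 pitch among unmarked spots, macrophage genes are lowest beyond 4 pitches, and muscle genes are highest there.

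The same rule on the later sections found few spots. On Day 7 it held for 3 of 2657 spots with at least 500 UMIs and on Day 14 for 14 of 2469, all unmarked, although these slides held 10900028 and 9326995 UMIs against 3475469 on Day 3. The days had 1 section each and were not tested. Their makeup was also different. The Day 7 spots had 60 UMIs of *S100a8*, 47 of *S100a9*, 1 of *Il1b* and none of *Cxcl2* or *Retnlg*, and the activated keratinocyte list at 38264 CPM. Of their 65 UMIs of the mature neutrophil list, 53 were *Slpi*. The Day 14 spots had 140, 176, 0, 0 and 9 UMIs of the 5 genes, with the activated keratinocyte list at 219.9 CPM and the mature neutrophil list at 632 CPM. On Day 3 the neutrophil-rich spots held 895 UMIs of *Il1b* and 1987 of *Cxcl2*. Among spots that met the rule, *Cxcl2* was found on the Day 3 slide alone, and *Il1b* there but for 1 UMI. Both genes are part of the rule, so this describes the choice. On the Day 7 and Day 14 slides these spots held 108 of 503 and 325 of 884 UMIs of the 5 genes. The remaining UMIs of those slides were not split by gene.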

How the data were processed

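Visium RNA was measured in 3 frozen sections of wounded mouse skin, 1 each at Day 3, Day 7 and Day 14. The authors deposited raw UMI counts per gene and spot with a list of spot positions. Space Ranger 1.3.0 and mm10 are named in the submitters' processing notes. The matrices hold every spot of the slide, and the 3 slides carry the same 4992 positional barcodes, so a shared barcode is no shared cell. Column 2 of the position list marks the selected area, and spots outside it also hold tissue RNA.

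Spots with at least 500 UMIs were kept. The 5 genes of the rule were left out of numerators and denominators, and counts were pooled over spots into CPM. A gene was called at a ratio of at least 2 or at most 0.5 when it had at least 50 UMIs over both groups. Intervals on UMIs (exact Poisson, Clopper-Pearson or conditional binomial, 95%) cover counting error only. Clopper-Pearson intervals on shares of spots treat spots as independent, which adjoining spots are not. PCR copies are already merged by the UMIs. Depth ran from 504 to 23372 UMIs over the neutrophil-rich spots, and the Day 3 slide held 3475469 UMIs. No doublet caller was run, since a spot may hold several cells. With 1 section per day, spots are not replicates and no test was made.

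The neutrophil-rich spots, the 23 gene lists and the tests were chosen with earlier results of these data known. Named genes are those of the lists and, for each of the comparisons with other marked and other unmarked spots, the 12 highest and 8 lowest genes by the bound of the interval nearer to no change. The same ranking within each area named *Cstdc4*, *Srgn* and *Hdc*. Some genes that the rule names are not reported here. *Il36g* was read under its older symbol in the file. The ratios and their intervals were checked on simulated counts. These were Poisson counts without spread between spots or a choice of spots by genes, so the check covers counting error only. Alternatives covered the rule, depth, scaling (edgeR 4.0.16 TMM and DESeq2 1.42.0 size factors on the pooled counts), thinning and gene minimum. Limits on epidermal and muscle RNA and the values without the largest unmarked patch were added after the data were seen. Python 3.11.15, numpy 2.4.6, scipy 1.17.1, pandas 2.3.3 and R 4.3.3 were used.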

Additional observations from a re-analysis of the deposited data

Results flagged for a closer look

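Unmarked spots of the Day 3 slide with fewer than 500 UMIs, which were in neither group of other spots, held 5621 UMIs of the 5 genes. That was 37.6% of the slide's UMIs of these genes, against 49.4% in the neutrophil-rich spots. Of their own UMIs the 5 genes made up 2.51% (2.43 to 2.599) within 5 pitches of the marked area, 0.897% (0.8402 to 0.956) at over 5 to 10, 0.628% (0.585 to 0.672) at over 10 to 20 and 1.13% (1.03 to 1.23) beyond. Within 5 pitches, 130 of 527 such spots held 10 or more of these UMIs and missed the chosen set by depth alone. The share beyond 20 pitches was higher than at over 5 to 20, on a median of 24 UMIs per spot, and its source was not tested.

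On the Day 7 and Day 14 slides the same rule found 3 and 14 spots, which were set beside the Day 3 values but not compared. The 3 spots of Day 7 were led by *S100a8* and *S100a9* and had no UMI of *Csf3r*, and the 14 of Day 14 had 2.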

How the results depend on the processing

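The mature neutrophil list stayed above both groups of other spots under every alternative run, at log2 ratios from 1.12 to 2.52 against other marked spots (1.55 as reported) and from 1.04 to 2.96 against other unmarked spots (1.74). Against marked and unmarked spots in that order, the values were 1.70 and 2.05 with 20 UMIs required, 2.52 and 2.96 when a share of 0.5% was required in place of 10 UMIs, and 1.67 and 1.98 with 10 UMIs of *S100a8* and *S100a9* alone. They were 1.37 and 1.55 from 1000 UMIs per spot, 2.52 and 2.79 as means of spot CPM, 1.42 and 1.42 without muscle and mitochondrial genes in the denominator, 1.33 and 1.11 by TMM and 1.31 and 1.04 by DESeq2 size factors. They were 1.12 and 1.32 without the top 10% of spots, 1.25 and 1.30 against spots within 3 pitches, 2.46 and 2.80 after thinning, 1.83 and 2.08 in spots low in epidermal RNA and 1.26 and 1.50 in spots low in muscle RNA. Against unmarked spots alone the value moved to 1.53 with 5 UMIs required and 1.59 from 250 UMIs per spot. All these values set the 241 spots, marked and unmarked together, against each group. Within the marked area alone the ratio of the list was 1.85-fold. It was 2.28 under the epidermal limit, 1.52 under the muscle limit and 3.02 by a share of 0.5%. The scaling and trimming alternatives were not run within 1 area.

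The number of neutrophil-rich spots depended on the limit: 367 with 5 UMIs, 123 with 20, 145 on *S100a8* and *S100a9* alone and 121 where epidermal RNA was low. A share of 0.5% gave 217, of which 152 were among the 241.

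Counts of genes at least 2-fold higher than in other marked spots moved from 616 to 1526 with 5 UMIs required, 383 by share, 385 by TMM, 361 by DESeq2 size factors, 271 within 3 pitches, 136 after thinning and 318 in spots low in muscle RNA. Gene minimums of 20, 100 and 0 UMIs gave 1244, 305 and 3531. Counts lower than in other marked spots moved from 334 to 503 by share, 105 within 3 pitches, 143 after thinning and 159 in spots low in muscle RNA, with 595, 211 and 2218 for the gene minimums.

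Against other unmarked spots, counts of higher genes moved from 2253 to 1073 by share, 1011 by TMM, 914 by DESeq2 size factors, 801 within 3 pitches, 307 after thinning and 1302 in spots low in muscle RNA, with 3759, 1183 and 6882 for the gene minimums. Counts of lower genes moved from 636 to 1141, 1217, 237 and 281 by TMM, by DESeq2 size factors, within 3 pitches and after thinning, and to 2351 with no minimum. Thinning leaves fewer UMIs and therefore fewer genes to test; the cause of the other shifts was not tested.

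Of 2867 values of 205 named genes against other marked spots, 1934 stayed inside the interval as reported, 916 left it and 17 changed direction. Against other unmarked spots these were 1624, 1203 and 44 of 2871 values of 206 genes. Among the leading genes, *Ampd1* and *Trim54* changed direction against unmarked spots within 3 pitches, to log2 ratios of 0.59 and 0.37. With 1 section, no alternative measures differences between animals, and genes with few UMIs have wide intervals. No paired analysis was possible because each day had 1 section.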
